A study of Homo sapiens with 5 samples.

Results

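The cell cycle genes described here are 55 named genes of 2 classes, taken from a list of gene symbols: 31 genes of the G1/S transition and DNA replication, and 24 genes of mitosis. Of these, 51 were measured among the 8127 genes of the table, 27 of the first class and all 24 of the second; CCNE2, CDKN2C, CDC6 and GINS1 are not analysed here. RNA from HEK293T cells was hybridised to 5 Illumina BeadArrays. HEK293T cells derive from human embryonic kidney and express the SV40 large T antigen. In the miR-182 pull-down (2 arrays), cells had received 200 pmol of a synthetic biotin-tagged miR-182-5p duplex and were collected 24 h later, and the microRNA was captured on streptavidin beads with the transcripts bound to it. The mock group (3 arrays) is labelled as mock-transfected and as having no pull-down, yet the bead protocol stands beside all 5 arrays, so whether mock RNA passed over beads is not settled here. If it did not, a difference between the groups holds bead capture as well as the microRNA. The study asked which transcripts miR-182-5p binds.

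Cells enter S phase when D-type and E-type cyclins activate their kinases, which phosphorylate the RB pocket proteins and free E2F factors to switch on the replication genes. Before that, ORC, CDC6 and CDT1 load the MCM helicase onto origins; later, cyclin A and cyclin B with CDK1, the Aurora and Polo kinases and the spindle checkpoint carry the cell through mitosis, and the anaphase-promoting complex with CDC20 ends it. In HEK293T cells the large T antigen binds the pocket proteins, and this line divides without the usual restraint on E2F. A microRNA pairs with transcripts mainly through its seed, bases 2 to 8 from the 5′ end, and a transcript held by a tagged microRNA should have a higher signal in the captured RNA. In bulk RNA, fewer cells of a cell cycle stage and less RNA per cell cannot be told apart. Rose and fell are used here for higher and lower in the pull-down than in the mock, which need not be a change of expression.

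The captured microRNA is shown because the comparison rests on it. It is encoded on the minus strand at chr7:129770447-129770470 (GRCh38.p14, RefSeq), and capitals mark its seed, which pairs with the site UUGCCAA in a transcript.
hsa-miR-182-5p: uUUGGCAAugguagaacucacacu
Transcript sequences of the members were not used here, so no sites were counted.

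Genes of the 2 classes are known for different promoters, and 4 of them are shown because neighbours in one class moved in opposite directions in the pull-down. RefSeq windows of 300 bases (250 before to 50 after a transcript start, GRCh38.p14) were found for 45 of the 55 members. Short motifs were searched on both strands: an E2F site (TTTCCCGC, TTTGGCGC or TTTCGCGC), the cell cycle homology region CHR (TTTGAA) and the CCAAT box (CCAAT). Overlaps between motifs were allowed. An E2F site was in 14 of 35 windows of replication genes (40.0%) and 3 of 23 windows of mitosis genes (13.0%), against 2.74% of all 35116 windows. CHR was in 3 of 35 windows (8.57%) and 17 of 23 windows (73.9%) respectively, against 15.2% of all windows. CCAAT was in 20 of 35 (57.1%) and 19 of 23 (82.6%), against 34.6%. These are properties of the gene classes and not measurements of the arrays. The 200 bases before the start are printed for each gene, with E2F sites in capitals for MCM6 and TYMS, and CCAAT and CHR in capitals for CCNB2 and TOP2A. They lie at chr2:135876444-135876643 (minus strand) for MCM6, chr18:657453-657652 (plus) for TYMS, chr15:59104946-59105145 (plus) for CCNB2 and chr17:40417897-40418096 (minus) for TOP2A.
MCM6: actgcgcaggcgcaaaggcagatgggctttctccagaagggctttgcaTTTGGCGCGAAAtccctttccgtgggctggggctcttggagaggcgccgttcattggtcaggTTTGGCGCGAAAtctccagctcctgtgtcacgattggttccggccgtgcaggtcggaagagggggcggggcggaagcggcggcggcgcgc
TYMS: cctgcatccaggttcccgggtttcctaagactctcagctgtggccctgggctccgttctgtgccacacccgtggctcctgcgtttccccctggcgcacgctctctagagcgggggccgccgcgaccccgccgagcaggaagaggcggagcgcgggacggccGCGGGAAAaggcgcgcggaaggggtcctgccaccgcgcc
CCNB2: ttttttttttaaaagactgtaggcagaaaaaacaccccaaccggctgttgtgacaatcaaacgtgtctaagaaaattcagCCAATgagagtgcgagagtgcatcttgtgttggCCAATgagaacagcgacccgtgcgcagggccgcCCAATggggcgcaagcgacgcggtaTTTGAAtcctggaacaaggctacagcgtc
TOP2A: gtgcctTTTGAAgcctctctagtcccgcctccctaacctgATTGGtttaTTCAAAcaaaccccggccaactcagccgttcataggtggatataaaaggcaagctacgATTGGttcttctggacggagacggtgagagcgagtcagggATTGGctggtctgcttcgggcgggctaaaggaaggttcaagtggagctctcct
MCM6 and TOP2A were higher in the pull-down, while TYMS and CCNB2 were lower. The next counts are by gene and not by window. Among called members that had a window, E2F sites were found for 4 of 6 higher and 1 of 6 lower genes. CHR was found for 3 of 6 and 3 of 6, and CCAAT for 5 of 6 and 5 of 6. The called members AURKA and BIRC5 had no window. Of the genes counted, CDK6, E2F3, MCM6 and MCM7 among the higher and TYMS among the lower are replication genes. The higher and lower genes thus differ in class as well. By gene, E2F sites were found for 14 of 25 replication genes, 2 of 20 mitosis genes and 902 of 27305 genes in all. By window, they were in 4 of 10 for higher and 1 of 6 for lower members. Whether motifs go with the calls was not tested.

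All values are the authors' deposited log2 values, levels are given in the order of the array numbers, and each difference is pull-down minus mock on that log2 scale. Array medians lay between 8.72 and 8.81. Correlations across probes were 0.978 to 0.987 within groups and 0.885 to 0.904 between them, and probes are not independent replicates. A floor near 8 compresses differences of dim probes, and 14.9% to 26.7% of probes in an array were no more than 0.1 above its minimum. Of 12 genes listed for HEK293T, 9 were measured. VIM was at 13.52 ± 0.11 in the mock and LIN28B at 10.85 ± 0.09, while KRT18 was at 8.08 ± 0.01 and NEFH at 8.03 ± 0.01, at the floor. Of 16 markers of leukocytes, fibroblasts, hepatocytes and keratinocytes, 1 was measured, COL1A1, at 8.03 ± 0.01 (SD, n = 3).

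Across the 51 measured members, 7 were called higher and 7 lower in the pull-down (limma, Benjamini-Hochberg adjusted p under 0.05 over all 8127 genes), and 37 were not called. Over all genes, 20.2% were called higher, 15.0% lower and 35.1% in either direction, and members were called in either direction in 14 of 51 cases. In the G1/S and replication class 4 of 27 were higher (14.8%) and 1 lower (3.70%), and 21 of 27 differences were above 0, with a median of 0.26. In the mitosis class 3 of 24 were higher (12.5%) and 6 lower (25%), and 13 of 24 differences were below 0, with a median of -0.14. The median over all genes was 0.02. With 1 pull-down replicate left out, the other is assumed to vary as the mock arrays do, which then give the spread. With 1 array left out at a time, 2 to 5 replication genes were higher and 1 to 2 lower, and 1 to 4 mitosis genes were higher and 1 to 3 lower. Lower mitosis genes then numbered 1 without mock replicate 1 and 3 without mock replicate 2 or mock replicate 3, against 6. Over all genes 812, 819 and 1205 were lower without mock replicates 1, 2 and 3, against 1215. Higher replication genes were 2 without mock replicate 1, against 4. Over all genes 1122 were then higher, against 1640. Whether the classes differ from each other was not tested. The mitosis median ranged from -0.25 (without pull-down replicate 2) to -0.03 (without pull-down replicate 1), and the replication median from 0.16 (without pull-down replicate 2) to 0.31 (without mock replicate 1).

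**Figure D1:**
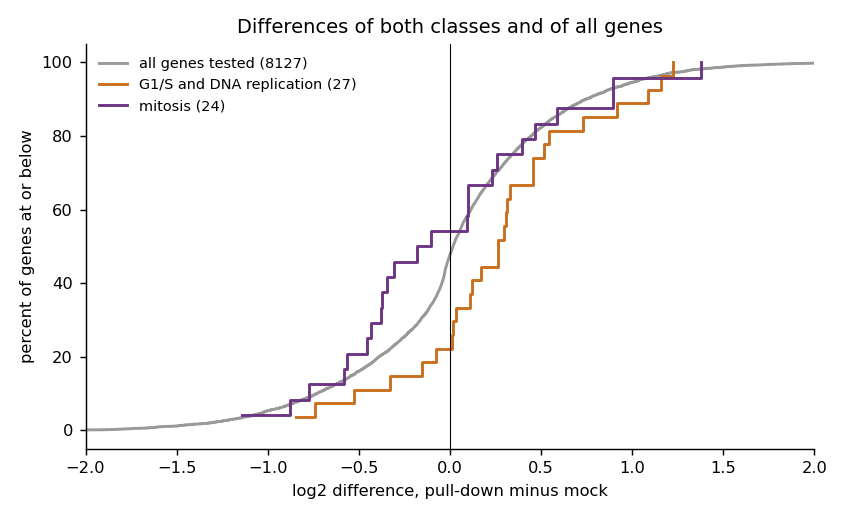
Cumulative share of genes (percent, vertical axis) by log2 difference, pull-down minus mock (horizontal axis), for 27 G1/S and replication genes, 24 mitosis genes and 8127 genes in all. The replication curve lies right of 0 for 21 of its 27 genes, and the mitosis curve crosses its midpoint at -0.14.

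No array of one group overlapped the other group for 29 members. Of these, 10 replication and 5 mitosis genes were higher in both pull-down arrays than in all mock arrays, where 35.0% of all genes were, and 4 replication and 10 mitosis genes were lower, against 30.1% of all genes. The lower replication genes include E2F1, which was at or near the floor in all arrays, where a difference cannot be read. All 14 called members were among the 29. Separate cultures are not named in the labels, so the p-values cover the spread between these arrays alone, which may be technical. An exact permutation test of 2 arrays against 3 has 10 splits and a smallest p of 0.1.

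Among the kinases that start the cycle, CDK6, a partner of D-type cyclins, was the member with the largest positive difference of its class. Its levels were 10.64 and 10.48 in the pull-down and 9.53, 9.32 and 9.16 in the mock. Both pull-down arrays were above all mock arrays, a difference of 1.22 (SE 0.13) or 2.33-fold (limma with Benjamini-Hochberg, adjusted p = 0.00566). CDK4, the other kinase of these cyclins, was at 11.53 and 11.72 in the pull-down and 11.90, 12.38 and 12.18 in the mock. There the pull-down arrays were below the mock, yet the difference of -0.53 (SE 0.16) did not pass (limma with Benjamini-Hochberg, adjusted p = 0.0677), and it passed without mock replicate 1 (adjusted p = 0.0407). CDK2, the kinase of cyclins E and A, had a difference of 0.30 (SE 0.10) that did not pass, with -0.08 at its second probe. Whether CDK6 and CDK4 differed from each other was not tested; their 95% intervals were 0.87 to 1.57 and -0.96 to -0.09.

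None of the 4 measured G1 cyclins was called. CCND1 came closest, at 9.40 and 9.44 in the pull-down and 9.12, 9.22 and 8.99 in the mock, with every pull-down replicate above the mock and a difference of 0.31 (SE 0.09) (limma with Benjamini-Hochberg, adjusted p = 0.0523). Differences of CCND2, CCND3 and CCNE1, which activate the G1 and S phase kinases, were 0.33, 0.46 and 0.17. For CCND3 the call was gained without mock replicate 2 (adjusted p = 0.0470), and without mock replicate 3 its difference was 0.29. The inhibitor CDKN1B (p27) was at 9.95 and 9.62 in the pull-down and 9.33, 9.52 and 8.96 in the mock, a difference of 0.52 (SE 0.21) that did not pass (limma with Benjamini-Hochberg, adjusted p = 0.120). Its second probe, at 9.91 and 9.88 in the pull-down and 9.08, 8.82 and 8.97 in the mock, had a difference of 0.94 with adjusted p = 0.00537 when all probes were tested by limma, so the probes of this gene gave different calls.

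E2F3, an activator of replication genes, was the E2F member that rose. It was at 11.15 and 10.92 in the pull-down and 10.31, 10.21 and 10.40 in the mock, with no overlap, a difference of 0.73 (SE 0.10) or 1.66-fold (limma with Benjamini-Hochberg, adjusted p = 0.00966). E2F2 was at 10.004 and 10.14 in the pull-down and 10.15, 10.22 and 9.80 in the mock, with overlapping groups and a difference of 0.02 (SE 0.15). E2F1, at 8.001 and 8.002 in the pull-down and 8.16, 8.06 and 8.03 in the mock, was at or near the floor in all arrays, where a difference cannot be read. The pocket proteins that hold E2F in check were not called. RB1 had mean values of 8.46 ± 0.21 in the pull-down and 8.197 ± 0.14 in the mock, RBL1 of 8.05 ± 0.01 and 8.04 ± 0.01, and RBL2 of 8.79 ± 0.18 and 8.76 ± 0.34. Their differences of 0.26, 0.01 and 0.03 did not pass. RBL1, like E2F1, was at or near the floor in all arrays, where a difference cannot be read. The mock values of RB1 were also close to the floor.

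The MCM2 to MCM7 subunits form the hexameric helicase that opens origins, and the 6 differences were all above 0, with a median of 0.69. MCM6 was at 12.29 and 13.07 in the pull-down and 11.85, 11.64 and 11.29 in the mock, a difference of 1.09 (SE 0.29) or 2.12-fold (limma with Benjamini-Hochberg, adjusted p = 0.0472). MCM7 was at 13.55 and 14.08 in the pull-down and 13.06, 13.07 and 12.57 in the mock, a difference of 0.92 (SE 0.24) or 1.89-fold (adjusted p = 0.0427). In both genes the pull-down arrays lay above the mock arrays, and pull-down replicate 2 was the higher of its group. MCM5 was at 10.56 and 11.40 in the pull-down and 9.49, 9.65 and 10.32 in the mock. It had the largest difference of the 6, 1.16 (SE 0.37), and the largest spread, and it did not pass (limma with Benjamini-Hochberg, adjusted p = 0.0710), though it did without mock replicate 3 (adjusted p = 0.0454). Without pull-down replicate 2 its difference was 0.74. MCM3 was at 13.22 and 13.94 in the pull-down and 13.30, 13.04 and 13.04 in the mock with overlapping groups, a difference of 0.46 (SE 0.24), and 0.70 at its second probe. Pull-down array 2 alone gave 0.82 (limma, adjusted p = 0.0433) and pull-down replicate 1 alone 0.098 (0.682). MCM2 was at 10.88 and 10.65 in the pull-down and 10.32, 10.33 and 10.71 in the mock, and MCM4 at 11.15 and 11.52 in the pull-down and 11.53, 11.03 and 11.11 in the mock. Both overlapped between groups, with differences of 0.31 and 0.11.

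The calls of MCM6 and MCM7 were near the threshold. MCM6 lost its call without pull-down replicate 2 (adjusted p = 0.147), mock replicate 1 (0.0802), mock replicate 2 (0.119) or mock replicate 3 (0.0940), and without pull-down replicate 2 its difference was 0.70. Leaving out any of the 5 arrays ended the call of MCM7 (limma, Benjamini-Hochberg adjusted p from 0.0596 to 0.164). Its second probe, at 8.04 and 9.17 in the pull-down and 8.56, 8.33 and 8.49 in the mock, gave 0.14.

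ORC1, a subunit of the complex that marks origins, was at 8.58 and 9.07 in the pull-down and 8.31, 8.25 and 8.29 in the mock. Both pull-down arrays were above the mock, with a difference of 0.54 (SE 0.16) (limma with Benjamini-Hochberg, adjusted p = 0.0586). Pull-down array 2 alone gave 0.79 (adjusted p = 0.0212) and pull-down replicate 1 alone 0.29 (0.0708). CDT1, which loads the MCM helicase, was at 8.78 and 8.99 in the pull-down and 9.94, 10.13 and 9.13 in the mock. The pull-down arrays were lower than all mock arrays, with a difference of -0.84 (SE 0.33) that did not pass (limma with Benjamini-Hochberg, adjusted p = 0.115). Mock array 3 was nearest to the pull-down, and without it the difference was -1.15 (adjusted p = 0.0137).

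**Figure D2:**
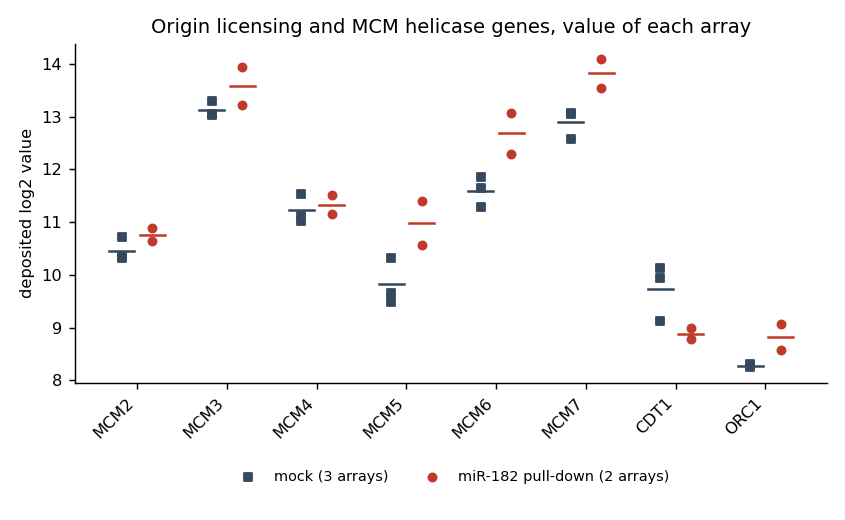
Deposited log2 value of each array (vertical axis) for the 8 measured origin licensing and MCM helicase genes, with mock arrays as squares, pull-down arrays as circles and group means as lines. Pull-down values are above all mock values for MCM5, MCM6, MCM7 and ORC1 and below them for CDT1.

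Among polymerases and enzymes of nucleotide supply, thymidylate synthase TYMS, which makes the thymidine nucleotide for DNA, was the replication gene that fell. It was at 10.49 and 10.69 in the pull-down and 11.24, 11.39 and 11.37 in the mock, without overlap. Its difference was -0.74 (SE 0.10), or 1.67-fold higher in the mock (limma with Benjamini-Hochberg, adjusted p = 0.00799). Both subunits of ribonucleotide reductase overlapped between groups. The large subunit RRM1 had a difference of 0.12 (SE 0.15) and the small subunit RRM2 one of 0.26 (SE 0.24). POLA1, the catalytic subunit of the priming polymerase, was at 9.005 and 9.83 in the pull-down and 9.88, 9.75 and 9.62 in the mock, a difference of -0.33 (SE 0.27). Its pull-down arrays differed: array 1 was below all mock arrays and array 2 among them, and the sign of the difference turned with the array used. It was -0.74 from array 1 alone (limma, Benjamini-Hochberg adjusted p = 0.0404) and 0.082 from array 2 alone (0.717). The leading-strand polymerase POLE had a difference of -0.15 (SE 0.18).

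**Figure D3:**
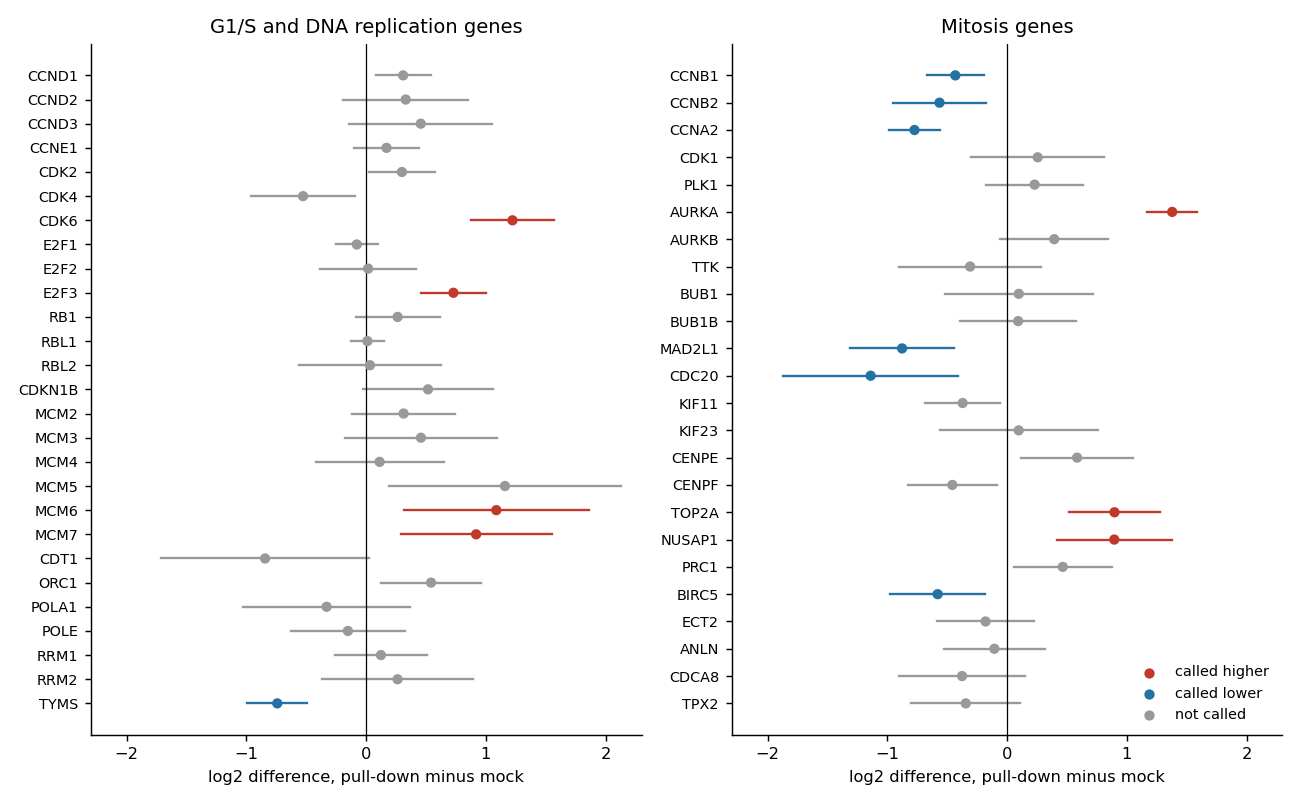
Log2 difference, pull-down minus mock (horizontal axis), with its 95% interval from limma for the 51 measured members, in order of role. Red points are the 7 called higher, blue points the 7 called lower and grey points the 37 not called.

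In mitosis, the cyclins that drive entry were lower. CCNA2, the S phase and mitotic cyclin A, was at 10.04 and 9.88 in the pull-down and 10.80, 10.67 and 10.74 in the mock. Both pull-down arrays lay below the mock by a difference of -0.77 (SE 0.08), 1.71-fold (limma with Benjamini-Hochberg, adjusted p = 0.00545). CCNB1, a cyclin B, was at 9.56 and 9.79 in the pull-down and 10.14, 10.05 and 10.12 in the mock, a difference of -0.43 (SE 0.09) (adjusted p = 0.0249). CCNB2, the other cyclin B measured, was at 9.99 and 10.37 in the pull-down and 10.89, 10.71 and 10.63 in the mock, a difference of -0.56 (SE 0.15) (adjusted p = 0.0437). None of the 3 cyclins overlapped between groups. CDK1, the kinase they activate, was at 10.77 and 11.26 in the pull-down and 10.87, 10.92 and 10.49 in the mock and overlapped, with a difference of 0.26 (SE 0.21) that did not pass and -0.04 at its second probe. CCNB1 lost its call without pull-down replicate 1 (adjusted p = 0.0771), mock replicate 1 (0.0780), mock replicate 2 (0.0625) or mock replicate 3 (0.0609). CCNB2 lost it without the same arrays, with adjusted p of 0.143, 0.110, 0.108 and 0.0642 (limma, Benjamini-Hochberg).

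AURKA, the kinase of spindle poles and centrosomes, had the largest positive difference of all members. It was at 12.23 and 12.24 in the pull-down and 10.75, 10.86 and 10.96 in the mock. The pull-down arrays were nearly equal and above all mock arrays, a difference of 1.38 (SE 0.08) or 2.60-fold (limma with Benjamini-Hochberg, adjusted p = 0.00281), and its second probe gave 1.44. TPX2, which activates AURKA on spindle microtubules, was at 9.32 and 9.70 in the pull-down and 9.75, 9.73 and 10.09 in the mock. Its pull-down arrays were both below the mock, with a difference of -0.34 (SE 0.17) that did not pass (limma with Benjamini-Hochberg, adjusted p = 0.193). Polo kinase PLK1 had a difference of 0.23 (SE 0.15) and the checkpoint kinase TTK one of -0.31 (SE 0.22), both with overlapping groups.

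AURKB, BIRC5 (survivin) and CDCA8 (borealin) are subunits of the chromosomal passenger complex, which corrects kinetochore attachment. BIRC5 fell: it was at 10.32 and 10.17 in the pull-down and 10.70, 11.08 and 10.70 in the mock, a difference of -0.58 (SE 0.15) (limma with Benjamini-Hochberg, adjusted p = 0.0417). Its second probe lay between 8.25 and 8.51 in all arrays, close to the floor, and gave 0.06. BIRC5 lost its call without pull-down replicate 1 (adjusted p = 0.111), pull-down replicate 2 (0.174), mock replicate 1 (0.0759) or mock replicate 3 (0.0565). CDCA8 was at 9.41 and 9.45 in the pull-down and 9.56, 9.69 and 10.16 in the mock, lower in both pull-down arrays, and its difference of -0.38 (SE 0.20) did not pass. AURKB, the kinase of the complex, was at 10.68 and 10.94 in the pull-down and 10.34, 10.22 and 10.68 in the mock, with a difference of 0.39 (SE 0.17) (limma with Benjamini-Hochberg, adjusted p = 0.145; 0.0485 without mock replicate 3).

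The spindle checkpoint delays anaphase by holding CDC20 back with MAD2, and genes of both proteins were lower. CDC20 was at 11.002 and 11.30 in the pull-down and 12.32, 12.70 and 11.85 in the mock. This was the largest negative difference among the members, -1.14 (SE 0.28), or 2.203-fold higher in the mock (limma with Benjamini-Hochberg, adjusted p = 0.0362). MAD2L1, which encodes MAD2, was at 10.38 and 10.47 in the pull-down and 11.28, 11.05 and 11.56 in the mock, a difference of -0.88 (SE 0.16) or 1.84-fold (adjusted p = 0.0187), with -0.51 at its second probe. Groups did not overlap for either gene. The checkpoint kinase BUB1 was at 10.33 and 11.07 in the pull-down and 10.69, 10.51 and 10.60 in the mock and the related BUB1B at 8.87 and 8.68 in the pull-down and 8.83, 8.36 and 8.86 in the mock. Both overlapped, with differences of 0.10 and 0.09. CDC20 lost its call without pull-down replicate 1 (adjusted p = 0.160), pull-down replicate 2 (0.0986), mock replicate 1 (0.104) or mock replicate 2 (0.0647), and MAD2L1 without pull-down replicate 1 (0.0943), pull-down replicate 2 (0.0739) or mock replicate 1 (0.0623; limma with Benjamini-Hochberg).

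TOP2A and NUSAP1, which untangle and organise chromosomes on the spindle, were higher. TOP2A, the DNA topoisomerase of dividing cells, was at 12.43 and 12.71 in the pull-down and 11.48, 11.73 and 11.81 in the mock, a difference of 0.90 (SE 0.14) or 1.86-fold (limma with Benjamini-Hochberg, adjusted p = 0.0125; 0.0561 without pull-down replicate 2). NUSAP1, a microtubule-binding protein, was at 11.57 and 11.52 in the pull-down and 10.91, 10.71 and 10.34 in the mock, a difference of 0.90 (SE 0.18) (adjusted p = 0.0227). No array overlapped in either gene. The second NUSAP1 probe gave -0.12, and the call was lost without pull-down replicate 1 (adjusted p = 0.105), pull-down replicate 2 (0.0907) or mock replicate 2 (0.0682; limma with Benjamini-Hochberg).

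**Figure D4:**
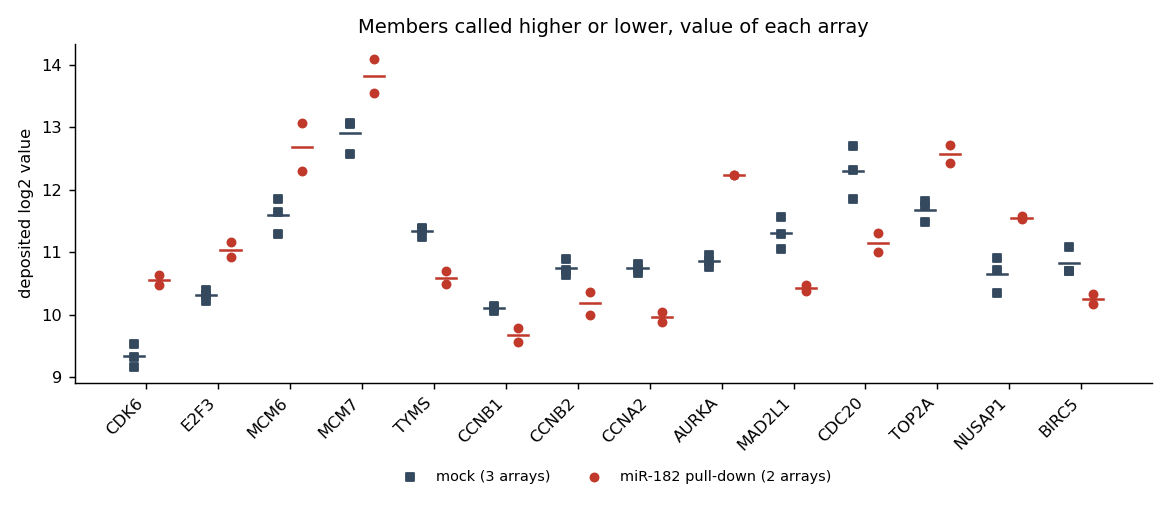
Deposited log2 value of each array (vertical axis) for the 14 called members, with mock arrays as squares, pull-down arrays as circles and group means as lines. Values of the groups do not overlap in any of the 14, of which 7 are higher and 7 lower in the pull-down.

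None of the motor and kinetochore members KIF11, KIF23, CENPE and CENPF was called. CENPE, a kinetochore motor, was at 9.94 and 10.17 in the pull-down and 9.76, 9.39 and 9.27 in the mock. Both pull-down arrays were above the mock, with a difference of 0.58 (SE 0.18) (limma with Benjamini-Hochberg, adjusted p = 0.0629, and 0.0342 without mock replicate 1). Its second probe overlapped between groups and gave 0.32 (adjusted p = 0.363 when all probes were tested by limma). The kinetochore protein CENPF was lower in both pull-down arrays, with a difference of -0.46 (SE 0.14) (adjusted p = 0.0661). Pull-down array 2 alone gave -0.66 for CENPF (adjusted p = 0.0358) and pull-down replicate 1 alone -0.26 (0.167). The spindle motor KIF11 was also lower in both, with -0.37 (SE 0.12) (adjusted p = 0.0732). PRC1, which bundles the central spindle, had a difference of 0.47 (SE 0.16) without overlap and did not pass (adjusted p = 0.0799). KIF23, the motor of the central spindle, and the cytokinesis factors ECT2 and ANLN overlapped between groups, with differences of 0.10, -0.18 and -0.11.

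Most members differed between the 2 pull-down arrays in the same direction. Pull-down array 2 was higher than array 1 for 18 of 27 replication genes and 17 of 24 mitosis genes, with median differences between these arrays of 0.18 and 0.25. Over all genes array 2 was the higher for 46.7%, with a median of -0.01. For MCM2 to MCM7 the median was 0.63, with 5 of 6 higher in array 2; the exception was MCM2. These are values of 2 arrays, with no test.

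**Figure D5:**
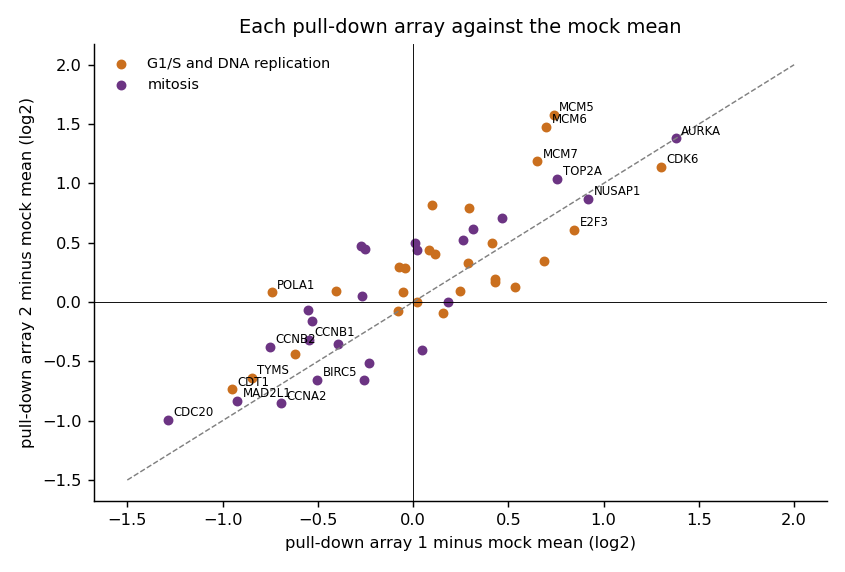
Log2 difference from the mock mean of pull-down replicate 1 (horizontal axis) and of pull-down replicate 2 (vertical axis) for the 51 measured members, with equality as the dashed line. MCM5, MCM6 and MCM7 lie above the line, and all 14 called members, whose groups do not overlap, have the same sign on both axes.

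Of the 13 members with a second probe, 7 had the same sign at both probes and 6 opposite signs. The 6 second probes of opposite sign were at 0.06 (BIRC5), -0.04 (CDK1), -0.08 (CDK2), -0.04 (KIF23), -0.04 (MCM4) and -0.12 (NUSAP1). None of these passed when all probes were tested (limma, Benjamini-Hochberg adjusted p from 0.640 to 0.912). Those of KIF23, CDK2 and BIRC5 were close to the floor. The 5 called members whose call held in all 13 alternative settings were CDK6, E2F3, TYMS, CCNA2 and AURKA. The other 9 lost it in at least 1, and 13 of the 37 uncalled members gained one in at least 1. Averaging all probes of a gene ended the calls of MCM7 (0.53, adjusted p = 0.192), NUSAP1 (0.39, 0.126) and BIRC5 (-0.26, 0.138). Quantile normalization ended those of MCM6 (adjusted p = 0.0654) and CCNB2 (0.0739), and MCM6 also lost its call when all probes were tested (0.0507). CCNB1 lost its call among genes with a mean of at least 9 (adjusted p = 0.0692) and with a trended prior (0.0753). CDK4, CDT1, CENPE and MCM5 gained a call in both of these settings, CDKN1B in the first and ORC1 in the second. CCND1 and ORC1 passed after subtracting the 75th percentiles of the arrays, CENPF and KIF11 after subtracting their medians, and CCND1 and CDKN1B with all probes averaged. All these p-values are limma's, adjusted by Benjamini-Hochberg.

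Wider lists of the same pathways, written from general knowledge, were read against the same shares of all genes (20.2% higher, 15.0% lower). Of 45 measured other DNA replication genes, 7 rose and 8 fell (median -0.01). The largest rises were those of thymidine kinase TK1 (1.03 (SE 0.17)), polymerase subunit POLD1 (0.98 (SE 0.15)) and clamp loader RFC5 (0.83 (SE 0.15)). Geminin GMNN, the inhibitor of CDT1, had the largest fall (-1.85 (SE 0.17)), followed by RPA3 (-1.60 (SE 0.13)) of the single-strand binding protein and the sliding clamp PCNA (-0.81 (SE 0.13)). Of 32 other regulators of the cycle, 7 rose and 5 fell (median 0.01). The SCF ubiquitin ligase genes SKP1 (1.69 (SE 0.15)) and SKP2 (1.18 (SE 0.18)) and the kinase inhibitor CDKN1A (1.23 (SE 0.12)) led the rises, and the kinase subunits CKS1B (-1.82 (SE 0.17)) and CKS2 (-1.48 (SE 0.23)) and the repressor E2F5 (-0.86 (SE 0.16)) the falls. Of 57 other mitosis genes, 7 rose and 12 (21.1%) fell (median -0.09). The spindle motor KIFC1 (1.99 (SE 0.12)) and the kinetochore genes CENPN (1.97 (SE 0.11)) and DSN1 (1.27 (SE 0.13)) were at one end, and the kinetochore genes CENPW (-1.67 (SE 0.15)), CENPM (-1.31 (SE 0.19)) and ZWINT (-1.30 (SE 0.11)) at the other. In limma, the 18 genes had Benjamini-Hochberg adjusted p-values from 0.00276 to 0.0169. TK1, POLD1, RFC5, PCNA, E2F5 and CENPM lost their calls with at least 1 array left out, at adjusted p-values between 0.0513 and 0.0784. With all probes averaged PCNA was at -0.46 and CENPM at -0.79, and both passed.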

How the data were processed

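The series holds 5 Illumina BeadArrays, grouped by their titles into 2 miR-182 pull-down and 3 mock arrays. The log2 values were deposited by the authors for 11184 probes. That they are to base 2 was read from their range. How they were background-corrected, normalized and filtered is not given in the sources used here. Lumi 2.2.1 is named in the submitters' processing notes without a role. The 10 value columns of an unnormalized table carry no sample name and were not used. Of the probes, 10040 had 1 gene symbol, 1 had several and 1143 had none in the platform annotation. Of those with 1 symbol, 10039 were matched to a current symbol through Entrez identifiers (RefSeq, GRCh38.p14). Each of 8127 genes was represented by its brightest probe on average.

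Differences were tested with limma 3.58.1 under R 4.3.3 (2-sided, lmFit with eBayes, no term but group, 3 residual and 1.61 prior degrees of freedom), Benjamini-Hochberg over 8127 genes, called at an adjusted p under 0.05. A fold is 2 raised to the log2 difference. Precision is limited by the number of arrays. The fit was tested on simulated data. Members, lists and tests were chosen with earlier results of these data known, and no list was given a test of its own. Every member is named. Values in every array are given for called members, for uncalled members that form a pair or complex with a called one and for some others. From wider lists, up to 3 called genes in each direction are named, with their differences. Alternatives were 3 scalings, a filter on the mean, 2 uses of further probes, a trended prior, a replicate block and leaving out each array. Replicate 3 is in the mock alone, so the block sets mock replicate 3 aside.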

Additional observations from a re-analysis of the deposited data

How the results depend on the processing

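All 14 called members kept their direction in all 13 alternatives. Leaving out 1 array could not have changed it, since the groups of these members did not overlap. The replicate block has the differences of the fit without mock replicate 3. The trended prior, the filter on the mean and the test of all probes leave a difference as it was. Lower calls in the replication class numbered 3 of 20 with genes of a mean of at least 9 alone, against 1 of 27. In the mitosis class they numbered 5 of 22 there, while 1116 of all 3831 genes kept were lower. With a trended prior 3 of 27 replication genes were lower, and 1421 of all 8127 genes. The replicate numbers of the titles are shared by 2 pairs of arrays, whose deviations from the group means correlated with r = 0.04 and 0.12, and nothing else ties them. With the replicate block there were 2 lower replication genes, 3 lower mitosis genes, 11 higher regulators and 1 lower cohesin or condensin gene, and E2F2 was at -0.11. Over all genes 1289 were then higher and 1132 lower. The block ended the calls of MCM6 (limma, Benjamini-Hochberg adjusted p = 0.106), MCM7 (0.0586), CCNB1 (0.0913), CCNB2 (0.0914) and BIRC5 (0.0792). MCM5 (0.0318) and CDT1 (0.0211) gained one. With 1 array left out, counts higher ranged from 2 to 5 (replication class), 1 to 4 (mitosis class), 2 to 7 (other replication genes), 5 to 10 (regulators), 6 to 8 (other mitosis genes), 2 to 4 (anaphase-promoting complex) and 1 to 3 (cohesin and condensin); counts lower were 1 to 2, 1 to 3, 3 to 6, 2 to 5, 5 to 13, 3 to 5 and 0 to 3 in the same order. The 0 was without pull-down replicate 1. The median of the mitosis class ranged from -0.254 to -0.0322. Over all genes 958 to 1379 were then higher and 638 to 1205 lower, against 1640 and 1215. The cause was not tested.

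Uncalled members changed sign as follows. After subtracting array medians E2F2 was at -0.024, RBL1 at -0.030 and RBL2 at -0.0087, and RBL2 was at -0.023 with quantile normalization. With 1 array left out the ranges were -0.27 to 0.054 for ANLN, -0.068 to 0.19 for BUB1B, -0.74 to 0.082 for POLA1, -0.40 to 0.096 for POLE, -0.14 to 0.20 for RBL2, -0.27 to 0.47 for BUB1, -0.11 to 0.099 for E2F2, -0.41 to 0.048 for ECT2, -0.25 to 0.45 for KIF23, -0.073 to 0.30 for MCM4, -0.044 to 0.29 for RRM1. The number of arrays and the floor near 8 limit what can be read.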

Other observations

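Genes that act on sister chromatids and at anaphase moved in both directions in the pull-down. Of 15 measured genes of the anaphase-promoting complex and its partners, 4 were called higher and 5 lower (limma, Benjamini-Hochberg adjusted p under 0.05), against 20.2% and 15.0% of all genes. The ubiquitin-conjugating enzyme UBE2C (1.15 (SE 0.20)) and the subunits ANAPC1 (0.98 (SE 0.11)) and ANAPC4 (0.80 (SE 0.10)) were higher. Securin PTTG1 (-1.42 (SE 0.08)) and the small subunits ANAPC13 (-1.22 (SE 0.24)) and ANAPC11 (-1.03 (SE 0.22)) were lower. UBE2C lost its call without pull-down replicate 1 (adjusted p = 0.0774) or mock replicate 2 (0.0565), ANAPC13 without mock replicate 1 (0.0691) or mock replicate 2 (0.0695), and ANAPC11 without pull-down replicate 1 (0.119), pull-down replicate 2 (0.0878) or mock replicate 1 (0.0786; limma with Benjamini-Hochberg). With all probes of a gene averaged, ANAPC1 was at 0.40 (adjusted p = 0.0517) and ANAPC11 at -0.33 (0.0501), and neither passed.

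Of 17 measured cohesin and condensin genes, 4 rose (23.5%) and 3 fell (17.6%), with a median difference of 0.17. These shares were near those of all genes, 20.2% and 15.0%. The condensin subunits NCAPG (1.81 (SE 0.15)) and NCAPD2 (0.86 (SE 0.16)) and the cohesin protector CDCA5 (0.72 (SE 0.18)) were higher, while cohesin SMC3 (-0.85 (SE 0.15)) and the condensin subunits SMC4 (-0.71 (SE 0.12)) and NCAPH2 (-0.40 (SE 0.11)) were lower. NCAPG kept its call with each array left out in turn. The other 5 lost theirs at least once: CDCA5 and NCAPH2 with any array left out, NCAPD2 without mock replicate 1 or 2, SMC3 without pull-down replicate 1 or mock replicate 1, and SMC4 without either pull-down array, at limma's Benjamini-Hochberg adjusted p-values between 0.0513 and 0.178. With all probes averaged NCAPH2 was at -0.26 (adjusted p = 0.0586), SMC3 at -0.49 and SMC4 at -0.40, and the latter pair passed.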
